A study of Mus musculus with 2 samples.

Results

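The genes described here encode the liver's urea cycle and the enzymes that handle ammonia beside it. They were chosen by symbol, as the probe sets that the platform annotation names for a single gene on a fixed list of 10: Nags, Cps1, Otc, Slc25a15, Ass1, Asl, Arg1, Glud1, Gls2 and Glul. Of these, 9 genes had such a probe set, 14 probe sets in all, among 18193 genes on the array, and Gls2, the liver glutaminase, had none. 1 further probe set carries the symbol of Ass1 together with that of another gene and was not counted. Liver RNA of male C57Bl/6J mice, aged 9 weeks before an acclimatisation of 1 week, was measured on Affymetrix arrays after 112 days of feeding. All mice used here had first been fed a sunflower oil diet to deplete n-3 polyunsaturated fatty acids, with an n-6 to n-3 ratio of 127.2, and their treatment differed in the last 10 days. DEF/FOS mice stayed on that diet and took 0.25 g per day of fructooligosaccharides, a fermentable fibre, in their tap water. DEF/CT mice were instead put on the soybean oil control diet, whose ratio was 6.9. The groups held 8 mice each by the treatment protocol, with 4 to 8 mice pooled per group by the extract protocol, and each pool of RNA was put on 1 array.

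With 1 array of pooled RNA per group, no difference below has a replicate, a test or a p-value, and the spread between mice cannot be seen. The groups differed in the fibre and in the oil, and the effects of these cannot be told apart. The deposited values are MAS5 signals on a linear scale, with a trimmed mean of 100.00 in both arrays. Differences are log2 signal in DEF/FOS minus log2 signal in DEF/CT, centred on the median over probe sets whose mean signal reached a floor of 19.4. All 14 probe sets of the 9 genes lay above that floor. Albumin (Alb), the marker of hepatocytes, had signals of 11023 in DEF/FOS and 11303 in DEF/CT, and 9 hepatocyte markers had a median difference of -0.03. The ratio of 3-prime to 5-prime signal of the actin control was 1.97 in DEF/FOS and 2.16 in DEF/CT.

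The urea cycle turns the nitrogen of ammonia and aspartate into urea for excretion, and in mammals it runs in full mainly in hepatocytes. Its first steps lie in mitochondria, where N-acetylglutamate switches on carbamoyl phosphate synthetase. Ornithine then shuttles between mitochondrion and cytosol, where the remaining enzymes build and split arginine. Periportal hepatocytes, around the incoming blood, carry the cycle and the liver glutaminase, while a rim of perivenous hepatocytes around the central vein captures leftover ammonia as glutamine. Glucagon through cyclic AMP, glucocorticoids and the C/EBP factors are known to raise transcription of cycle genes in rodent liver.

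Promoter sequences were available from RefSeq for 6 of the genes, at 7 starts, as 250 bases before to 50 after each start on GRCm38.p6. Those of Otc, Ass1 and Nags are shown as examples of genes with lower signals in DEF/FOS, and that of Glul as a gene without. The sequences of Slc25a15, also lower, and of Glud1, also not lower, were searched but are not shown. All run 5′ to 3′ along the gene, and the capitals mark the letters searched, which are spelled out after the sequences.
Otc, chrX:10252055-10252354, plus strand: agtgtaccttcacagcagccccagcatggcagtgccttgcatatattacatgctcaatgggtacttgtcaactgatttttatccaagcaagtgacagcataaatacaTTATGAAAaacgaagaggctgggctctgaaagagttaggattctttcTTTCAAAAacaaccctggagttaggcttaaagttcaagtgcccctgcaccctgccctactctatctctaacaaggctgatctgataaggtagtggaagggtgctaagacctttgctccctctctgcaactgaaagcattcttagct
Ass1, chr2:31470020-31470319, plus strand: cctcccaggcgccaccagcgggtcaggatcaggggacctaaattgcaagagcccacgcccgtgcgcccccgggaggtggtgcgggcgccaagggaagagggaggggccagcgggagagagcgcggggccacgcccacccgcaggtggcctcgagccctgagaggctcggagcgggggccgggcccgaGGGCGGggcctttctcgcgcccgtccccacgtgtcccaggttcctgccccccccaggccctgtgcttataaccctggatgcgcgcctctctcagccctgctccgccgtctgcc
Nags, chr11:102145263-102145562, plus strand: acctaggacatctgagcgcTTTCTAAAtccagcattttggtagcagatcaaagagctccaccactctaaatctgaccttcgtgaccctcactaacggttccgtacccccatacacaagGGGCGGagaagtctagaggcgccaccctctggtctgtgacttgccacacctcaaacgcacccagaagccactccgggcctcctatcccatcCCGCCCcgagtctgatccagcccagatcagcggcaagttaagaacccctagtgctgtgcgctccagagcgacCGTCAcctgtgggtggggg
Glul, chr1:153899679-153899978, plus strand: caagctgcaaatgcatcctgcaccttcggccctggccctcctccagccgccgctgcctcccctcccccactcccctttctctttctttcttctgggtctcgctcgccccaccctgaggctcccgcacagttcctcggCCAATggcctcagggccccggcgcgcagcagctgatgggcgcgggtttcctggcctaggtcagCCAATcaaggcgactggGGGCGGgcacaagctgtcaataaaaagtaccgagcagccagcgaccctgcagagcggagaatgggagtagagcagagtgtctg
Both strands were searched for TATAAA (core promoter box), TGACGTCA (cyclic AMP response element, CRE) and its core TGACG, TTGCGCAA (C/EBP palindrome) and the looser TTNNGNAA that contains it, AGAACA (glucocorticoid receptor), CAAAGTCCA (HNF4), CCAAT (NF-Y) and GGGCGG (GC box). TGACG lies within TGACGTCA, so every match of the longer word is also one of the shorter.

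The promoter of Otc differed in its letters from the other 6 sequences. It had 44.3% G and C bases and held no GC box, whereas the others had 57.7% to 81.0% and at least 1 GC box each. The median over 32851 promoters in the table was 52.7%, and 35.7% of them held a GC box. TTNNGNAA was found in the sequences of Otc, which held it with matches beginning 143 and 96 bases before the start, and of Nags, and in 40.7% of all promoters. TGACG stood only in that of Nags among the 7, 32 bases after the start, against 20.8% of all promoters. CCAAT was found only in Glul among the 7, with matches beginning 113 and 50 bases before the start, and in 37.4% of all promoters. TATAAA, held by 13.6% of all promoters, and AGAACA, by 19.0%, were found in 0 of the 7. The same was so for TGACGTCA, held by 1.79% of all promoters, TTGCGCAA, by 0.183%, and CAAAGTCCA, by 0.475%. These are matches of letters and not shown to be bound sites.

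All 7 genes of the cycle proper, counted with the synthase of its activator and its ornithine carrier, had lower signals in the DEF/FOS pool, by 1.08-fold to 1.30-fold. The mitochondrial glutamate dehydrogenase Glud1 and the glutamine synthetase Glul had signals 1.10-fold and 1.08-fold higher. The median difference of the 9 genes was -0.25 on the log2 scale, and that of all 11163 genes above the floor was 0.00. By count, 7 of 9 were below 0, where 50.0% of all genes above the floor were, and 46.4% of the 6751 genes above the 75th percentile of signal, to which all 9 belong. None of the 9 reached 1.5-fold in either direction, while among all genes above the floor 7.82% were lower by that much or more and 6.75% higher. Above the 75th percentile of signal those shares were 2.77% and 4.01%. In bulk liver RNA, fewer cells of a type and less RNA per cell cannot be told apart.

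**Figure D1:**
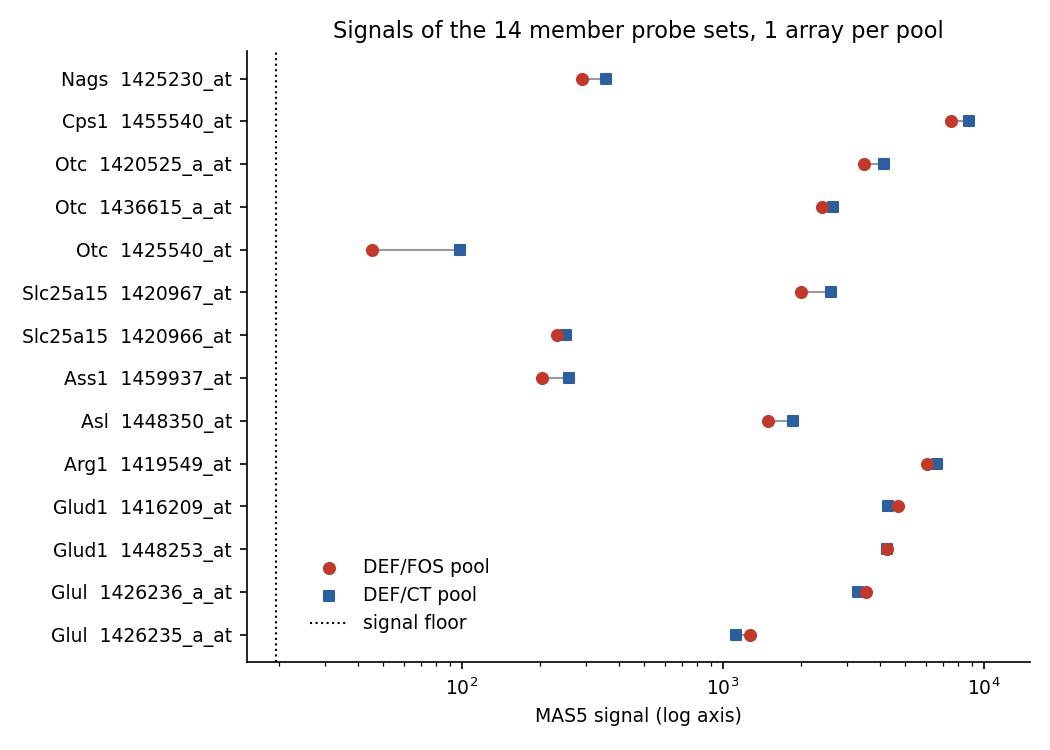
MAS5 signal of each of the 14 probe sets (rows, by gene and probe set identifier) in the DEF/FOS pool (red circles) and the DEF/CT pool (blue squares), 1 array each, on a log axis, with the signal floor of 19.4 as a dotted line. The circle lies left of the square in all 10 probe sets of the 7 cycle genes and at or right of it in the 4 probe sets of Glud1 and Glul.

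The mitochondrial steps came out as follows. Nags, which makes the N-acetylglutamate that activates the cycle, had a signal of 289 in DEF/FOS and 357 in DEF/CT (1425230_at), a difference of -0.29. Cps1, the synthetase that fixes ammonia into carbamoyl phosphate, had 7490 in DEF/FOS and 8815 in DEF/CT (1455540_at), a difference of -0.22. The signals of both genes were thus lower in the DEF/FOS pool, by 1.22-fold for the activator's synthase and 1.16-fold for the enzyme it activates.

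Otc, the X-linked ornithine transcarbamylase that joins carbamoyl phosphate to ornithine, was measured by 3 probe sets. The brightest, 1420525_a_at, had 3464 in DEF/FOS and 4158 in DEF/CT, a difference of -0.25. The next, 1436615_a_at, had 2392 in DEF/FOS and 2643 in DEF/CT, a difference of -0.13. The dimmest, 1425540_at, had 45.5 in DEF/FOS and 98.3 in DEF/CT, a difference of -1.10. All 3 were lower in the DEF/FOS pool, but by 1.09-fold to 2.14-fold, and the dim probe set was the only 1 of the 14 past 1.5-fold or 2-fold. Among all probe sets above the floor, 2.39% were lower in DEF/FOS by 2-fold or more.

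Slc25a15 encodes the carrier that brings ornithine into mitochondria and takes citrulline out. Its brighter probe set, 1420967_at, had 1989 in DEF/FOS and 2604 in DEF/CT, a difference of -0.37, the lowest of the 9 genes. Its other probe set, 1420966_at, had 233 in DEF/FOS and 252 in DEF/CT, a difference of -0.10. The probe sets had the same sign and differed in size, so the 1.30-fold of the gene rests on the brighter probe set.

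The cytosolic enzymes followed the same direction. Ass1, the argininosuccinate synthetase, which brings in the second nitrogen from aspartate, had 203 in DEF/FOS and 257 in DEF/CT (1459937_at), a difference of -0.32. This value rests on that probe set alone, the dimmest of those that stand for the 7 cycle genes. The probe set that names Ass1 together with another gene was not counted. Asl, the lyase that releases arginine and fumarate, had 1491 in DEF/FOS and 1862 in DEF/CT (1448350_at), a difference of -0.31. These neighbouring steps were lower by 1.25-fold and 1.24-fold. Arg1, the liver arginase that splits off urea, had 6062 in DEF/FOS and 6628 in DEF/CT (1419549_at), a difference of -0.11, the smallest of the 7 genes. Myeloid cells can also express Arg1. Of 8 Kupffer cell and macrophage markers above the floor, 7 were above 0, with a summed signal of 3888 in DEF/FOS and 3218 in DEF/CT and none below the floor in either pool. Marco, a scavenger receptor, was the only 1 of them past 1.5-fold, at 131 in DEF/FOS and 61.6 in DEF/CT. Of 4 neutrophil markers above the floor, S100a8, S100a9 and Lcn2 were more than 1.5-fold higher and Elane was below 0, and the summed signal of all 7 with a probe set was 403 in DEF/FOS and 150 in DEF/CT, with Camp and Ltf below the floor in both pools and Mpo below it in DEF/FOS. The part of these cells in the Arg1 signal was not tested.

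Glud1 frees or binds ammonia by converting between glutamate and 2-oxoglutarate in mitochondria. Its probe set 1416209_at had 4684 in DEF/FOS and 4303 in DEF/CT, a difference of 0.14. The other, 1448253_at, had 4250 in both pools, a difference of 0.01. Glul, the glutamine synthetase of perivenous hepatocytes, had 3526 in DEF/FOS and 3289 in DEF/CT (1426236_a_at), a difference of 0.12, and 1269 in DEF/FOS and 1129 in DEF/CT (1426235_a_at), a difference of 0.18. None of these 4 probe sets was lower in the DEF/FOS pool, and the largest difference was 1.14-fold higher. Skeletal muscle also makes Glul, and all 12 skeletal muscle markers were at least 1.5-fold lower in DEF/FOS. These were Acta1, Ckm, Tnnc2, Tnnt3, Tnni2, Myl1, Mylpf, Myh1, Myh4, Pvalb, Atp2a1 and Neb. Their summed signal was 164 in DEF/FOS and 2839 in DEF/CT, with 8 of 12 below the floor in DEF/FOS and 0 of 12 in DEF/CT, and Acta1, skeletal muscle actin, had 16.9 in DEF/FOS and 677 in DEF/CT. The part of muscle RNA in the Glul signal was not tested.

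Because the differences were small, they were set against the disagreement between probe sets of the same gene, the only technical spread these arrays offer. Among genes with a mean signal of at least 1000, the SD between probe sets of a gene was 0.16 on the log2 scale over 226 genes, and between 200 and 1000 it was 0.25 over 1043 genes. Each gene was judged by its brightest probe set and the SD at that signal, though the SDs were grouped by the mean over a gene's probe sets. In 6 of the 7 cycle genes the DEF/FOS signal was lower by more than that SD, the exception being Arg1. By the same measure 15.6% of all 4021 genes with a mean signal of at least 200 were lower. Against the SD of 0.25 for lower signals, Otc at -0.25 was about level. Of the other probe sets, Otc at -0.13 and Slc25a15 at -0.10 did not pass the SD at their signal. The dim probe set of Otc, at -1.10, passed an SD of 0.39. The differences of Glud1 and Glul did not exceed the SD in their brightest probe sets, while the other probe set of Glul, at 0.18, did. This spread leaves out mice and arrays. Among the 6751 genes above the 75th percentile of signal, 8.52% had a lower difference than Slc25a15, 11.1% than Ass1, 12.1% than Asl, 13.2% than Nags, 16.2% than Otc, 18.6% than Cps1 and 29.3% than Arg1. For Glul that share was 63.8% and for Glud1 66.8%. The cycle genes thus each lay in the lower part of bright genes, with Arg1 nearest the middle, and none of them lay at the extreme.

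**Figure D2:**
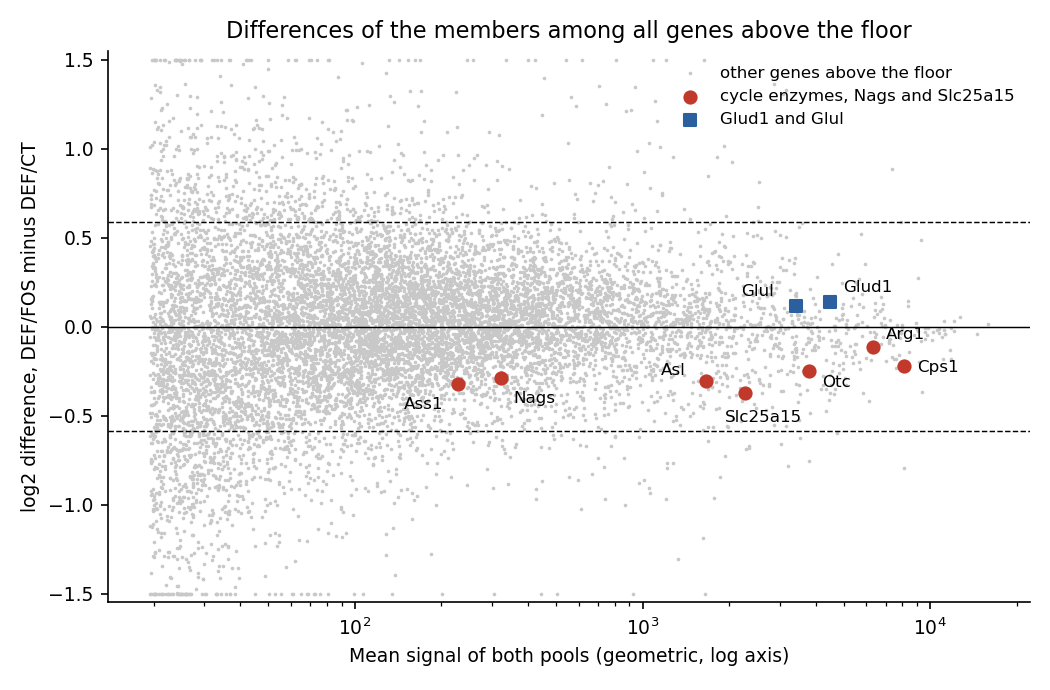
Log2 difference (DEF/FOS minus DEF/CT) against mean signal (geometric, log axis) for the 11163 genes above the floor, with the 7 cycle genes as red circles and Glud1 and Glul as blue squares. Dashed lines mark 1.5-fold, and 127 genes beyond 1.5 on the difference axis are drawn at its edge. The red circles lie between -0.37 and -0.11 and the blue squares at 0.12 and 0.14, all inside the dashed lines.

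The contrast between the cycle genes and the glutamate and glutamine enzymes is free of any constant scaling factor between the arrays, which drops out. It was not among the planned results. Its sign follows from the signs of the genes given above, so it is no separate support for them. Relative to Glul, the 7 genes had differences from -0.49 for Slc25a15 to -0.23 for Arg1. Relative to Glud1 they ran from -0.51 to -0.25. Normalizations that vary with signal moved these values. Relative to Glud1 they ran from -0.58 to -0.29 after quantile normalization and from -0.53 to -0.24 after lowess centring. The choice of probe sets moved them too. When each gene was given the median of its probe sets, the range relative to Glud1 lay nearer 0, from -0.40 to -0.19. Relative to Glul it was then -0.47 to -0.26. When Otc was left with its dim probe set alone, the range relative to Glud1 was -1.23 to -0.25. In Cps1 against Glul, the first ammonia-fixing enzyme against the last one along the blood flow, the difference was -0.34, or 1.26-fold. A ratio within an array shows unequal change and not which of the genes changed.

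Enzymes that feed nitrogen into the cycle or take up its products were mostly small in difference, with a median of -0.13 over 12 genes above the floor, 7 of them below 0. Got1, the cytosolic aspartate aminotransferase, was the only 1 past 1.5-fold, at 975 in DEF/FOS and 1676 in DEF/CT, 1.70-fold lower. The skeletal muscle markers were also lower in DEF/FOS, and the part of muscle RNA in the Got1 signal was not tested. Car5a, the mitochondrial carbonic anhydrase that supplies bicarbonate to carbamoyl phosphate synthesis, had 252 in DEF/FOS and 367 in DEF/CT, a difference of -0.53. Oat, the ornithine aminotransferase, had 3084 in DEF/FOS and 4051 in DEF/CT, a difference of -0.38. Mdh2, the mitochondrial malate dehydrogenase, had 1989 in DEF/FOS and 1698 in DEF/CT, a difference of 0.24, with its 2 probe sets from 0.03 to 0.24. Mdh1, the cytosolic malate dehydrogenase, had 4551 in DEF/FOS and 5417 in DEF/CT, a difference of -0.24. The 4 probe sets of Mdh1 above the floor ran from -0.90 to -0.11. Got2, the mitochondrial aspartate aminotransferase, had 3825 in DEF/FOS and 3822 in DEF/CT, a difference of 0.02. The 3 probe sets of Got2 above the floor ran from -0.39 to 0.13. The cytosolic aminotransferase, measured by 1 probe set, was thus lower in DEF/FOS, and the mitochondrial one was level in its brightest probe set. Slc25a13, the carrier that exports mitochondrial aspartate in exchange for glutamate, had 1144 in DEF/FOS and 1132 in DEF/CT, a difference of 0.03. Arg2, the mitochondrial arginase, was below the floor in both pools, at 9.24 in DEF/FOS and 17.3 in DEF/CT.

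Of 8 amino acid breakdown enzymes above the floor, 7 were below 0, with a median of -0.24, and 0 of 8 reached 1.5-fold. Prodh2, Aldh4a1 and Aass in this list do not release ammonia themselves. Of the other 5, which release it alone or as part of an enzyme system, 4 were below 0, with a median of -0.28. Hal, the histidine ammonia-lyase, had 995 in DEF/FOS and 1323 in DEF/CT, a difference of -0.40. Prodh2, the hydroxyproline dehydrogenase, had 389 in DEF/FOS and 503 in DEF/CT, a difference of -0.35. Cth, the cystathionine lyase, had 2439 in DEF/FOS and 3104 in DEF/CT, a difference of -0.33. The asparaginase Aspg had a difference of -0.28. These sizes overlap those of the cycle genes, which ran from -0.37 to -0.11.

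Transporters of ammonia, glutamine, urea and arginine went both ways, with 6 of 10 above the floor below 0, a median of -0.08 and 0 past 1.5-fold. Slc7a2, the arginine carrier of liver, had 1090 in DEF/FOS and 1561 in DEF/CT, a difference of -0.50, with its 4 probe sets from -0.50 to -0.12. Slc38a3, the glutamine carrier, had 3278 in DEF/FOS and 4235 in DEF/CT, a difference of -0.36. Aqp9, a channel for glycerol and urea, had 2093 in DEF/FOS and 2619 in DEF/CT, a difference of -0.31. In the other direction, Slc25a22, a mitochondrial glutamate carrier, had 606 in DEF/FOS and 486 in DEF/CT, a difference of 0.33. Hence the plasma membrane carriers with the larger differences were lower in DEF/FOS. The mitochondrial glutamate carrier Slc25a22, measured by 1 probe set, was higher, while Slc25a13, which exchanges glutamate for aspartate, was at 0.03.

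Known regulators of cycle genes had a median of -0.02 over 11 genes. Cebpb, a C/EBP factor, was the only 1 past 1.5-fold, at 919 in DEF/FOS and 534 in DEF/CT, 1.74-fold higher, and its other probe set had a difference of 0.87. Its relative Cebpa had 1265 in DEF/FOS and 1541 in DEF/CT, a difference of -0.27. Gcgr, the glucagon receptor, had 471 in DEF/FOS and 668 in DEF/CT, a difference of -0.49. The fatty acid receptor gene Ppara had a difference of -0.42 and the hepatocyte factor gene Hnf4a 0.25. The glucocorticoid receptor Nr3c1 had 448 in DEF/FOS and 514 in DEF/CT, a difference of -0.18, with its 5 probe sets from -0.30 to 0.20. The regulators therefore showed no common direction.

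Markers of the liver zones were read beside the members because the cycle and Glul lie in opposite zones. Of 11 periportal markers outside the members, 8 were below 0, with a median of -0.07. Ctsc, a lysosomal protease gene, was 1.58-fold higher at 1743 in DEF/FOS and 1114 in DEF/CT. Pck1, which makes phosphoenolpyruvate for glucose synthesis, had 3819 in DEF/FOS and 4913 in DEF/CT, a difference of -0.35. Hsd17b13, a lipid droplet protein, had a difference of 0.30 and Hsd17b6, a steroid dehydrogenase, 0.28.

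Of 10 perivenous markers outside the members, 8 were below 0, with a median of -0.37. Gulo, the last enzyme of vitamin C synthesis, was 1.56-fold lower at 1346 in DEF/FOS and 2124 in DEF/CT, and Lhpp, a phosphatase, 1.51-fold lower at 169 in DEF/FOS and 257 in DEF/CT. Tbx3, a transcription factor of the central zone, was 1.52-fold higher at 126 in DEF/FOS and 84.0 in DEF/CT. The 2 probe sets of Tbx3 above the floor ran from 0.21 to 0.60. Cyp1a2, a cytochrome P450, had 1718 in DEF/FOS and 2491 in DEF/CT, a difference of -0.52. The Wnt targets Lgr5 and Axin2 had differences of -0.38 and -0.36. Rhbg, the ammonia transporter found on the same cells as Glul, had 35.8 in DEF/FOS and 35.4 in DEF/CT, a difference of 0.03. Glul, with both probe sets above 0, thus had the sign of Tbx3 and the opposite sign to most markers of its zone, while Rhbg was level. In its brightest probe set the difference of Glul did not exceed the SD between probe sets at its signal, and in the other, at 0.18, it did. The cycle genes had the sign of most markers of both zones.

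**Figure D3:**
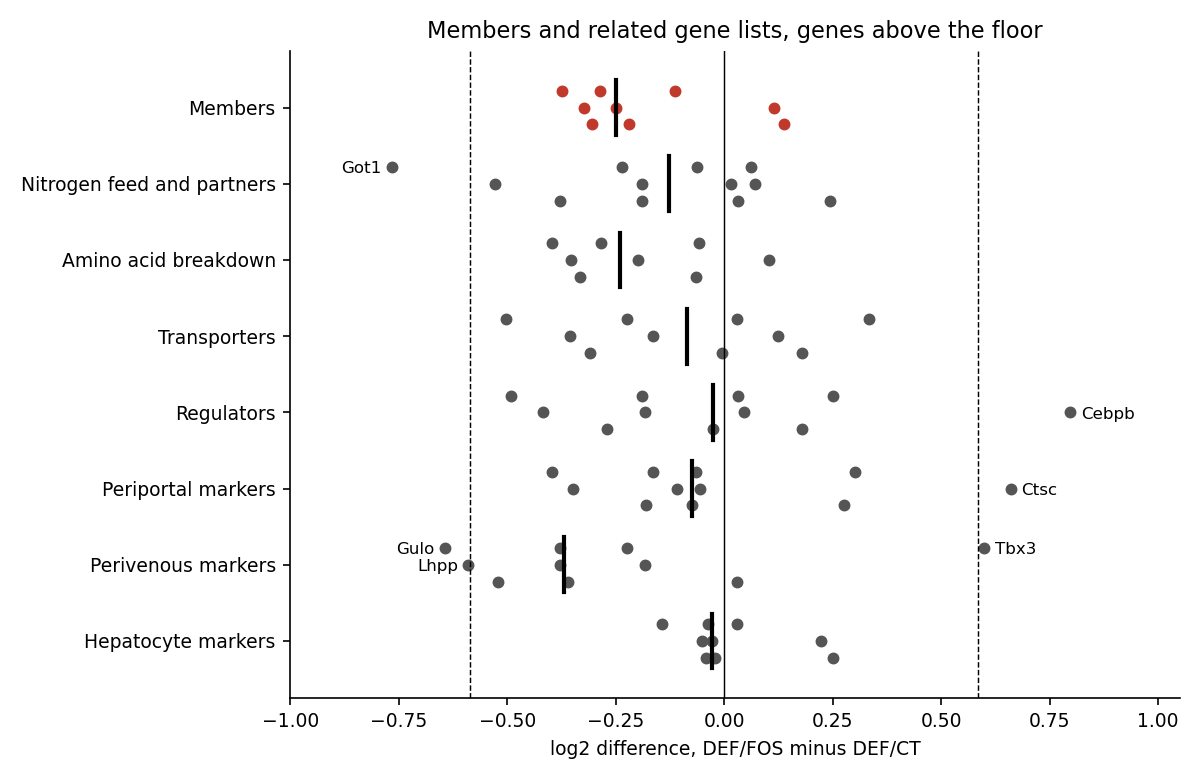
Log2 difference (DEF/FOS minus DEF/CT) of each gene above the floor, 1 point per gene, for the members (red) and related lists (grey), with the list median as a black bar and dashed lines at 1.5-fold. The points are spread vertically for legibility, and genes past 1.5-fold are named. The median is -0.25 for the members, -0.24 for amino acid breakdown, -0.37 for perivenous markers and -0.03 for hepatocyte markers.

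Other cells that a liver sample can hold were also measured. Of 3 cholangiocyte markers above the floor, all were above 0, led by Krt19 at 26.1 in DEF/FOS and 17.2 in DEF/CT, at least 1.36-fold higher because the DEF/CT signal lay below the floor. Of 5 pancreatic acinar markers above the floor, 4 were below 0, with a median of -0.40 and a summed signal of 855 in DEF/FOS and 1331 in DEF/CT. Most of the gap in that sum came from Cela1, an elastase, 2.03-fold lower at 428 in DEF/FOS and 878 in DEF/CT. Without Cela1 the sum was 427 in DEF/FOS and 453 in DEF/CT. In that sum the trypsinogen gene Prss2 had 172 in DEF/FOS and 134 in DEF/CT, from its brightest probe set. The 4 probe sets of Prss2 ran from -0.35 to 0.38, and only the brightest was above 0, so the direction of Prss2 is not settled. The part of these cells in the members' signals was not tested.

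The signs of all 9 genes were the same under each of the other 10 ways of processing that gave them a value. No centring, the other floors and centring on hepatocyte markers only shift all genes by the same amount. Raising lower signals to the floor left the members unchanged, so agreement among these settings adds little. Slc25a15 ran from -0.40 to -0.24, Ass1 from -0.36 to -0.27, Asl from -0.33 to -0.25, Nags from -0.32 to -0.23 and Cps1 from -0.24 to -0.16. Arg1 came nearest to 0, at -0.06 with no floor. Glud1 ran from 0.08 to 0.19 and Glul from 0.09 to 0.17. Only Otc moved far, to -1.08, when probe sets that may match several transcripts were left out and its dim probe set was all that remained.

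**Figure D4:**
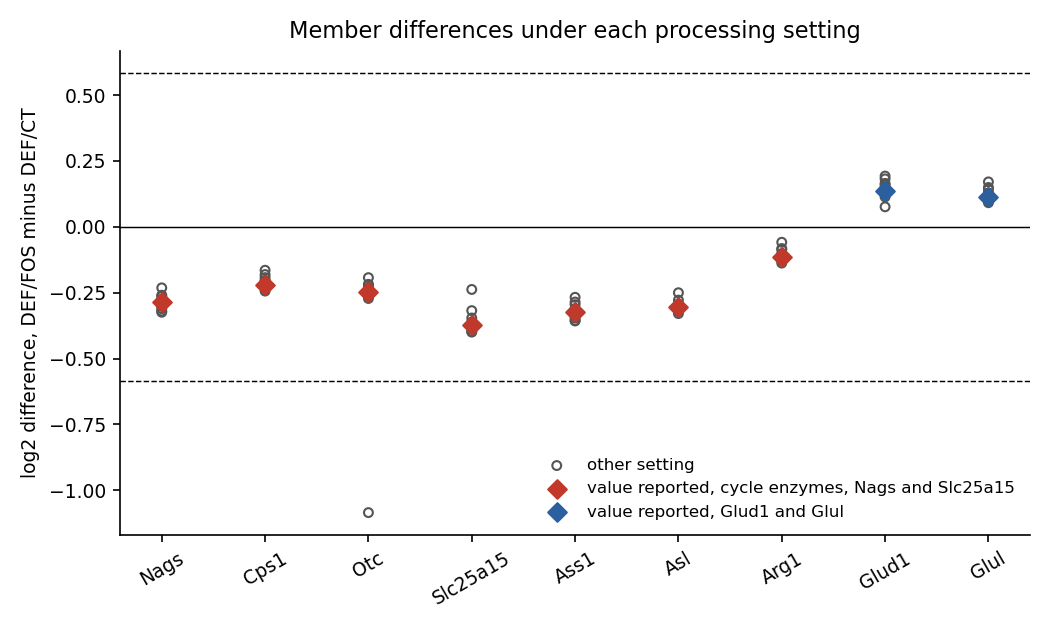
Log2 difference (DEF/FOS minus DEF/CT) of each of the 9 genes as reported (diamonds, red for the 7 cycle genes and blue for Glud1 and Glul) and under the other settings (open circles), with dashed lines at 1.5-fold. Every circle lies on the same side of 0 as its diamond, and the single value past a dashed line is that of Otc at -1.08.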

How the data were processed

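Liver RNA of 2 groups was measured on Affymetrix expression arrays, 1 array of pooled RNA per group. The deposited intensities are linear MAS5 signals that the authors had brought to the same trimmed mean (2% left out at each end). Per the submitters' processing notes GCOS and MAS5 were used, and no version is given there. The file holds 45101 probe sets, 64 of them controls, with no detection calls. Gene symbols were read from the platform annotation, which gave 34945 probe sets a single symbol and 932 several. The Entrez identifiers of all 14 member probe sets were in a RefSeq table, and 0 symbols had to be updated.

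From these values log2 differences were computed with Python 3.11.15, numpy 2.4.6 and pandas 2.3.3. The floor was the median of the mean log2 signal over probe sets that are not controls, and is no detection call. The differences were centred on their median above the floor, which was -0.01. For a gene with several probe sets the brightest on average was used, and folds come from centred differences. A gene was counted as past the threshold at 1.5-fold. The number of arrays limits the precision. The procedure was tested on simulated data. Promoters came from RefSeq's GRCm38.p6 table.

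The members and the gene lists were chosen with earlier results of these data known. Named were all members, each listed gene past 1.5-fold, and up to 4 further genes of each list with the largest differences. Other genes are named after their values were seen (Got2, Slc25a13, Arg2, Aldh4a1, Aass, Rhbg, Nr3c1), as are the markers Alb, Camp, Ltf and Mpo. No comparison between groups other than DEF/FOS against DEF/CT was made. Alternatives covered normalization, centring, the offset, the floor and the choice of probe sets.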

Additional observations from a re-analysis of the deposited data

How the results depend on the processing

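No paired analysis was possible because each group has 1 array. Besides the values reported, 10 settings were run: no centring, quantile normalization, an offset of 32, a floor at the 75th percentile, no floor, raising lower signals to the floor, the median over probe sets, leaving out probe sets of types a, s and x, which can match several transcripts, centring on hepatocyte markers, and a lowess fit on mean signal, the last chosen after seeing the data. In all 10 the median of the members lay between -0.28 and -0.19, 7 members were below 0 and 0 were at least 1.5-fold higher. The count of members at least 1.5-fold lower was 0 except without those probe sets, where it was 1: Otc, at -1.08, is then represented by its dim probe set, and Glul has none. The lack of detection calls and of replicates limits every value, and differences of this size cannot be set against the spread between mice.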
